A study of Arabidopsis thaliana with 9 samples.

Results

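The plastid genome of Arabidopsis thaliana was followed at the level of its transcripts in wild-type seedlings and in mutants of SCARECROW and SHORT-ROOT. Every locus of the expression table whose code starts with ATCG, the prefix of plastid-encoded loci, was taken, which gave 73 of 20777 loci. Total RNA from the vegetative part of Col-0 seedlings at growth stage 1.04 was measured on Affymetrix ATH1 arrays, which carry a set of short probes for each transcript. The 9 arrays form 3 groups of 3 biological repeats: WT, the scr-3 mutant and the shr-5 mutant, here called scr and shr, and all plants grew on MS medium at 22 °C with 16 h of light and 8 h of dark. SCARECROW (SCR) and SHORT-ROOT (SHR) are transcription factors of the GRAS family, known for the patterning of the root ground tissue, and the series asks how they act on leaf growth. The labels name 1 allele for each mutant and do not say whether the repeats were sown or harvested separately, so p-values measure only the spread between these samples, which may be technical.

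Plastids keep a small genome of their own. It encodes core subunits of both photosystems, the cytochrome b6f complex, the ATP synthase and the NDH complex, the large subunit of Rubisco, part of the plastid ribosome, and the core of a bacterial-type RNA polymerase called PEP. PEP transcribes most photosynthesis genes and depends on nucleus-encoded sigma factors and on a set of nucleus-encoded associated proteins, while a phage-type polymerase encoded in the nucleus transcribes many of the genes for the plastid's own gene expression. Neighbouring plastid genes are often transcribed together and cut afterwards, and the level of a plastid mRNA depends strongly on RNA-binding proteins that protect or process it. The RefSeq annotation of the TAIR10.1 assembly lists 129 plastid genes, of which 85 encode proteins, 37 tRNAs and 7 rRNAs. It lists 5 entries for photosystem I subunits, 15 for photosystem II, 6 for cytochrome b6f, 6 for the ATP synthase, 12 for the NDH complex, 4 for PEP, and 14 and 11 for small and large ribosomal subunits. That annotation pairs none of the 73 ATCG codes with a gene name, so the loci are given by code, without a name or a function.

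All values are log2 signals that the authors made with RMA, a method that normalises arrays to each other and joins the probes of a locus into a single value. The signal depends on the probes, so the levels of different loci are not amounts that can be set against each other, and only differences of the same locus between arrays are compared. A difference of 0.58 corresponds to 1.5-fold. Differences were tested with limma on all loci, and a locus was called where the p-value adjusted over all 20777 loci was under 0.05. SHR read 6.61, 6.57 and 6.81 in WT and 4.70, 4.73 and 4.89 in shr, so it separates those labels. SCR read 7.94 to 7.99 on the WT, 7.13 to 7.63 on the scr and 7.35 to 7.60 on the shr arrays, so it does not separate scr from shr. The position of the probes relative to either mutation was not known here.

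Plastid loci gave some of the strongest signals of the arrays. Of the 73, 58 lay in the top 10% of all loci by signal, 52 in the top 5%, and 69 were above the array's median on each of the 9 arrays. ATCG00480 had the highest mean signal of the plastid loci, 13.92, close to the top of the table at 14.03. ATCG01010, ATCG00330 and ATCG00730 were the 3 that lay in the lower 40% of the table, and ATCG01010 was the dimmest with a mean of 3.62. Repeats lay close together: the median SD within groups was 0.103 for plastid loci and 0.130 for all loci. The spread was uneven, from ATCG00600 with an SD of 1.15 and ATCG00590 with 0.434 down to ATCG00480 with 0.0266.

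**Figure D1:**
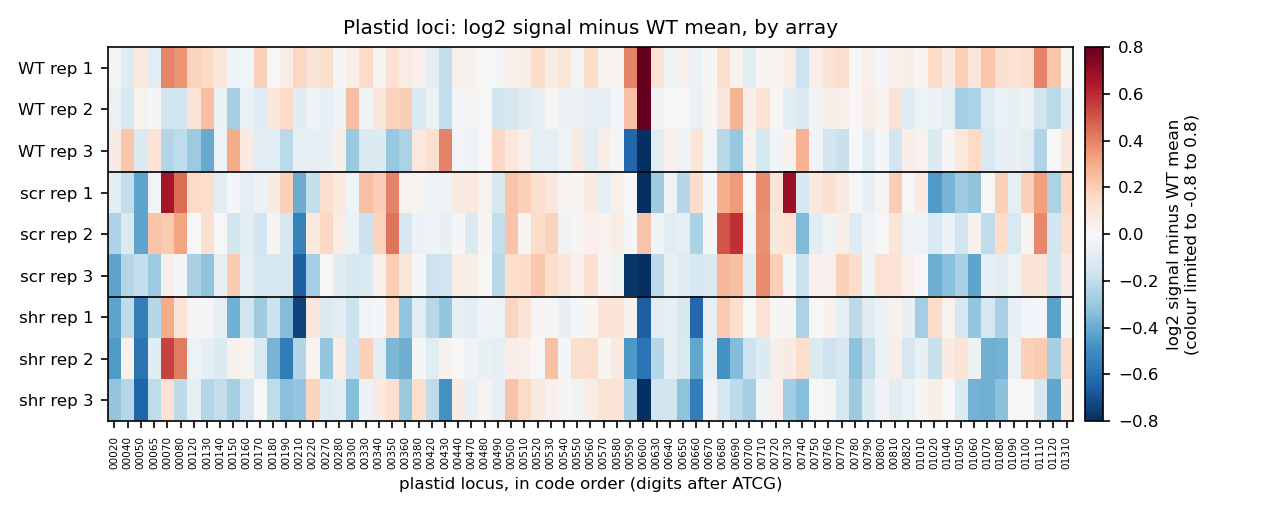
Heat map of the log2 signal minus the WT mean for the 73 plastid loci, in the order of their codes (horizontal), on each of the 9 arrays (vertical). The colour scale ends at 0.8 either way. Most loci stay pale on all arrays, and ATCG00600 varies widely within each group.

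In the normalised values, the signals of the plastid loci as a group stayed close to WT in both mutants, and shr arrays sat slightly lower as deposited. RMA normalises the arrays to each other, so these signals are relative and do not give the amount of plastid RNA. When each array was shifted to the median of its plastid loci, which makes these medians equal by construction, the median difference in shr became 0.06. The median plastid locus lay 0.05, -0.04 and -0.04 from the WT mean in the 3 WT repeats and 0.02, -0.02 and -0.04 from it in scr. In shr it lay at -0.06, -0.07 and -0.10. On this measure the shr arrays were the 3 lowest of the 9, while the WT and scr arrays overlapped. The SD of this median between arrays of a group was 0.0372. The plain median signal of the plastid loci did not separate the groups. It was 11.60 to 11.81 in WT, 11.57 to 11.70 in scr and 11.50 to 11.64 in shr. In leaf tissue measured in bulk, fewer plastids or green cells and less RNA per plastid or cell cannot be told apart, and neither can a change in how much plastid RNA the labelling captures.

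In scr, none of the 73 plastid loci passed the limma test against WT, at a rate of 0.366% over all loci. That rate ranged from 0.0818% without scr replicate 3 to 2.86% without shr replicate 3, with no plastid call in either fit. At an unadjusted p under 0.05 there were 7, 2 higher and 5 lower, and the corresponding rates over all loci were 5.28% and 5.71%. The median difference was -0.01, with quartiles of -0.08 and 0.10, against 0.00 for all loci, and 38 of 73 loci were below 0, a share near the 48.5% of all loci. It was 46 with each array shifted to the median of all its loci and 25 with the shift to the plastid median. Of the plastid loci, 6 were higher and 6 lower in scr with no overlap of the groups, which is 8.22% each beside 11.5% and 10.6% of all loci. Only 1 locus differed by over 1.5-fold, ATCG00600, beside 2.19% of all loci. The 95% interval lay within 1.5-fold either way for 61 of the 73 loci, a share near the 84.5% of all loci, and within 2-fold for 72.

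In shr, 3 plastid loci fell and none rose. That is 4.11% of the 73, where 8.14% of all loci were called, 3.79% lower and 4.35% higher. Shifting each array to the median of all its loci gave 7 plastid falls, with 9.46% of all loci called, and shifting it to the plastid median gave 1, with 7.35%. Leaving out 1 array moved the rate over all loci from 3.15% (without WT replicate 2) to 12.7% (without shr replicate 3) and the plastid falls between 1 (without WT replicate 1 or shr replicate 1) and 3. At an unadjusted p under 0.05, 12 loci were lower and none higher, while 12.2% of all loci were lower and 12.4% higher. The median difference was -0.06, with quartiles of -0.18 and 0.00, against -0.01 for all loci, and 53 of 73 loci (72.6%) were below 0, where 52.5% of all loci were. In 21 loci every shr array was below every WT array, and in 1 locus, ATCG00580, every shr array was above; over all loci the rates were 15.1% and 14.3%. The difference stayed within 0.2 for 55 of 73 loci in shr and also in scr, where all loci gave 64.5% and 79.7%. The 95% interval lay within 1.5-fold for 61 of 73, beside 76.5% of all loci. A difference over 1.5-fold was seen in 2 loci, ATCG00600 and ATCG00050, beside 6.35% of all loci. With each array shifted to the median of all its loci, 63 plastid loci were below 0, and with the shift to the plastid median 30 were. The 2 comparisons with WT use the same WT arrays, so their differences are not independent of each other.

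**Figure D2:**
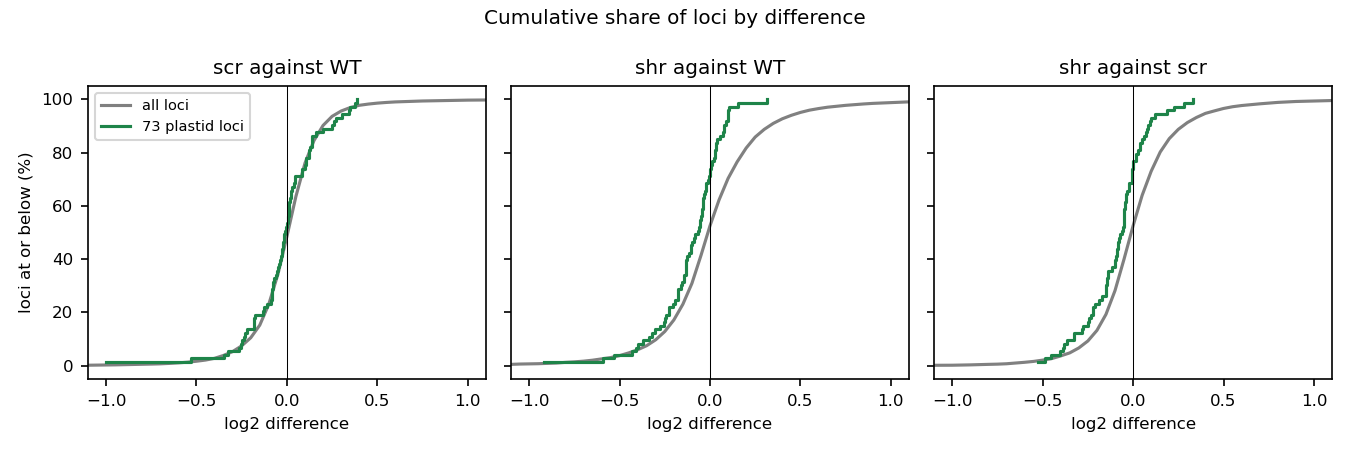
Cumulative share of loci (vertical) by log2 difference (horizontal) for the 73 plastid loci and for all 20777 loci, in a panel for each comparison. In scr the plastid curve runs close to that of all loci around 0, and in shr it reaches 72.6% at 0, above the 52.5% of all loci.

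The direct comparison of shr with scr showed the same size of difference. None of the 73 plastid loci passed the limma test, at a rate of 1.34% over all loci (0.159% without scr replicate 2 and 2.94% without shr replicate 3, with no plastid call in either), and the lowest adjusted p was 0.0727. At an unadjusted p under 0.05, 12 were lower in shr than in scr and 2 higher, beside 8.24% and 8.45% of all loci. The median was -0.06, against -0.01 for all loci, and 55 of 73 loci (75.3%) were below 0, beside 52.5%. In 21 loci every shr array was below every scr array and in 4 every one was above, where all loci gave 10.8% and 10.2%. No plastid locus differed by over 1.5-fold, beside 3.85% of all loci. The shr arrays are the same in both of their comparisons, so the shares below 0 are not independent.

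**Figure D3:**
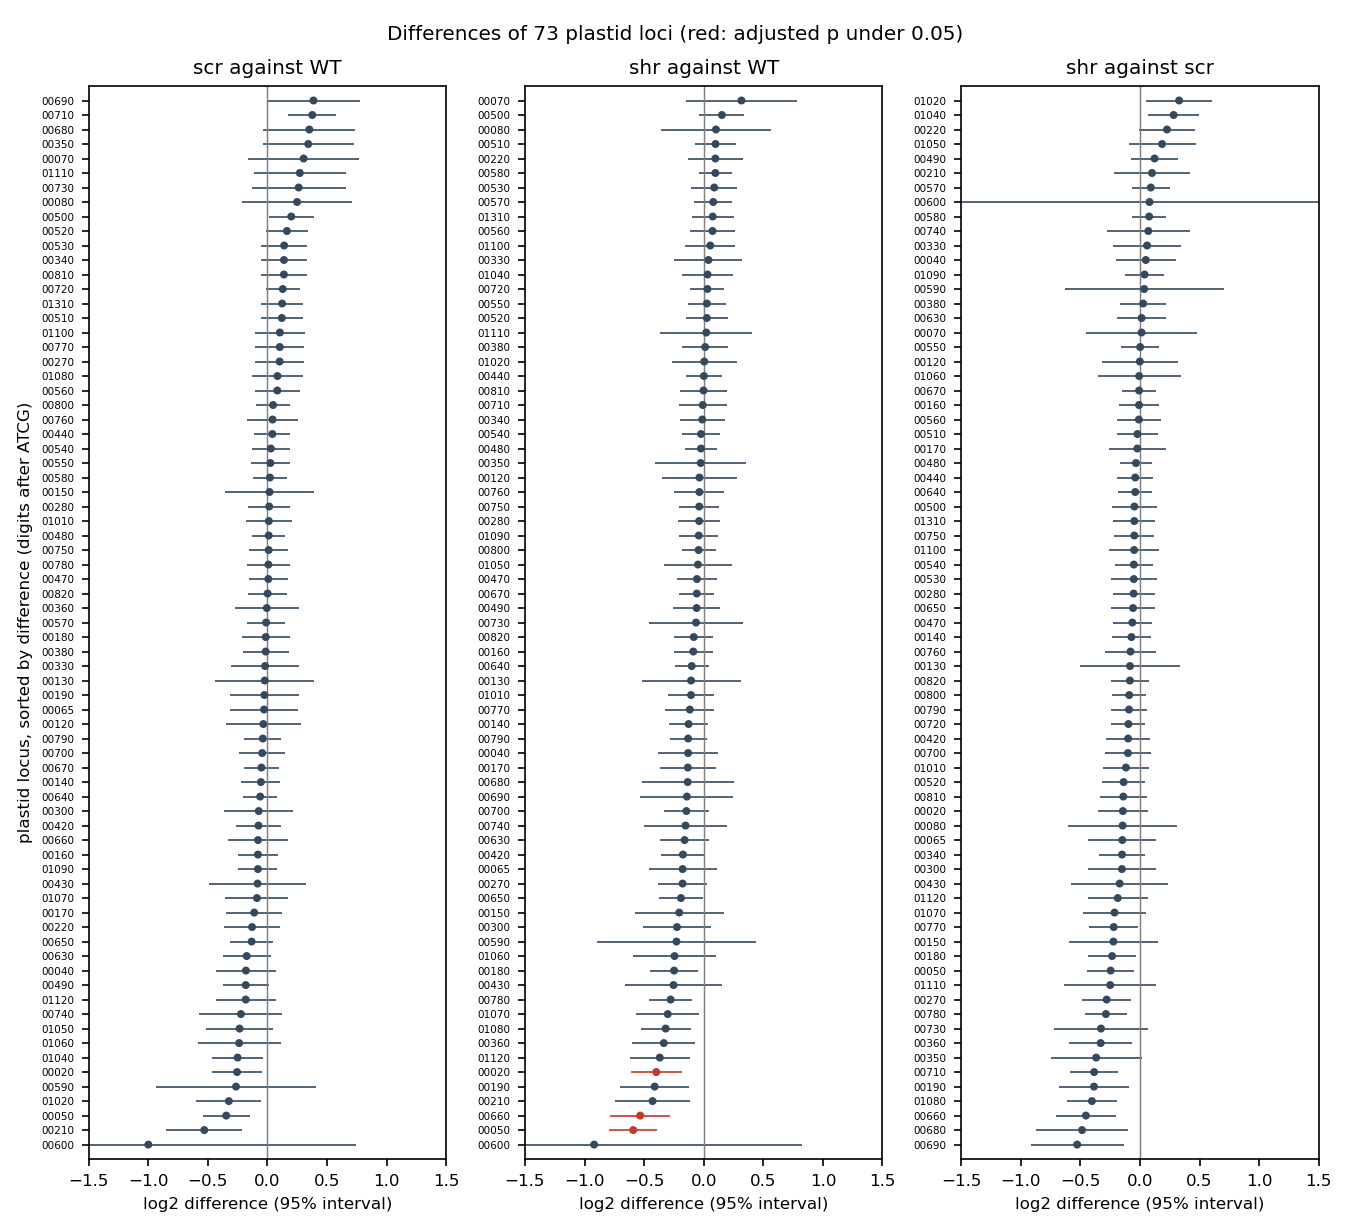
Log2 difference with its 95% interval (limma) for each of the 73 plastid loci in the 3 comparisons; red marks an adjusted p under 0.05, and the axis ends at 1.5 either way, so the interval of ATCG00600 runs past it. The 3 red loci are ATCG00050, ATCG00660 and ATCG00020, all lower in shr than in WT.

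ATCG00050 fell most clearly. Its signal was 8.35, 8.28 and 8.15 in WT, 7.84, 7.84 and 8.06 in scr and 7.71, 7.67 and 7.62 in shr. The shr arrays were the lowest, the scr arrays lay between, and no groups overlapped. The difference of shr from WT was -0.59 (SE 0.09, 95% interval -0.79 to -0.39), which is 1.51-fold lower (limma adjusted p = 0.00574). Each of the 9 fits that omitted an array called it, with an adjusted p of at most 0.0309. Against WT, scr differed by -0.35 (SE 0.09, adjusted p = 0.166), and shr differed from scr by -0.25 (adjusted p = 0.207), so the position of scr between the others did not pass the test.

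ATCG00660 was low on the shr arrays alone. It read 8.66, 8.65 and 8.81 in WT, 8.85, 8.45 and 8.58 in scr and 8.08, 8.29 and 8.15 in shr. All shr arrays were below all others, and the WT and scr arrays overlapped. The difference of shr from WT was -0.53 (SE 0.11, 95% interval -0.78 to -0.28), or 1.45-fold lower (limma adjusted p = 0.0221), and it was -0.45 against scr (adjusted p = 0.0834). The difference of scr from WT was -0.08 (adjusted p = 0.873). When any of the WT replicates or shr replicate 1 was omitted, the locus was no longer called, at an adjusted p of up to 0.0846.

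ATCG00020, the locus of median signal among the 73, fell less. Its signal was 11.83, 11.79 and 11.90 in WT, 11.75, 11.59 and 11.41 in scr and 11.42, 11.38 and 11.52 in shr. Both mutants lay below WT without overlap, and they overlapped with each other. In shr the difference from WT was -0.40 (SE 0.09, 95% interval -0.61 to -0.19), or 1.32-fold lower (limma adjusted p = 0.0349), and in scr it was -0.26 (adjusted p = 0.338). This call was the least stable of the 3: omitting any of the WT replicates, scr replicate 2, shr replicate 1 or shr replicate 2 ended it, at an adjusted p of at most 0.12. A block for the replicate number ended it too, at an adjusted p of 0.0561.

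Further loci had low values in shr without passing the threshold. ATCG01080 read 7.92, 7.75 and 7.73 in WT, 7.99, 7.94 and 7.72 in scr and 7.54, 7.42 and 7.47 in shr. The shr arrays did not overlap either group, with differences of -0.32 from WT (adjusted p = 0.0706) and -0.40 from scr (adjusted p = 0.0727). ATCG00780 differed from WT by -0.28 in shr (limma adjusted p = 0.0648) and ATCG01120 by -0.37 (adjusted p = 0.0776), both without overlap. For ATCG00190 the difference was -0.41 (adjusted p = 0.09). ATCG00210 was low in both mutants, with 7.56, 7.30 and 7.33 in WT, 7.0, 6.86 and 6.74 in scr and 6.66, 7.16 and 7.09 in shr. Neither mutant overlapped WT, and the differences were -0.53 in scr (SE 0.14, adjusted p = 0.181) and -0.43 in shr (adjusted p = 0.0987). The highest difference in shr was that of ATCG00070, 0.32 (SE 0.21, adjusted p = 0.387).

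The highest values in scr came from 3 loci with nearby codes. ATCG00710 read 11.78, 11.87 and 11.61 in WT, 12.13, 12.12 and 12.13 in scr and 11.87, 11.65 and 11.72 in shr. The scr arrays were nearly equal and above all others, with a difference of 0.38 from WT (SE 0.09, 95% interval 0.18 to 0.58, adjusted p = 0.134), while shr differed from scr by -0.38 (SE 0.09, adjusted p = 0.073) and from WT by -0.01. ATCG00680 read 11.40, 11.36 and 11.05 in WT and 11.56, 11.77 and 11.54 in scr, without overlap and with a difference of 0.35 (SE 0.17, adjusted p = 0.51). ATCG00690 differed by 0.39 (SE 0.17, adjusted p = 0.462), with 9.94, 10.19 and 9.61 on the WT and 10.25, 10.50 and 10.14 on the scr arrays, which overlap. Within the same-numbered pairs of scr and WT arrays ATCG00690 was higher in scr each time, by 0.31, 0.31 and 0.53, and with the replicate block its adjusted p was 0.389. In shr these 2 loci read 11.48, 10.79 and 11.14, and 10.05, 9.57 and 9.70, and differed from WT by -0.13 and -0.14. ATCG00700, whose code lies among them, did not share the pattern, at -0.04 in scr and -0.15 in shr. None of these differences passed the threshold.

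Loci with neighbouring codes tended to have similar differences. In scr, the median gap between the differences of 2 neighbours in code order was 0.0959 over 72 neighbouring pairs, against 0.163 over all 2628 pairs of plastid loci. In shr it was 0.0931 against 0.145, and between the mutants 0.128 against 0.147. Neighbours had the same sign in 62.5% of pairs in scr and 70.8% in shr, where all pairs gave 49.4% and 59.7%. These are descriptions of pairs that share arrays and, within a transcription unit, may share RNA.

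The widest spread was that of ATCG00600, which limits what can be said of it. It read 8.09, 8.01 and 5.40 in WT, 6.05, 7.40 and 5.06 in scr and 6.51, 6.58 and 5.66 in shr. Replicate 3 was the lowest of each group, and the groups overlapped throughout. Its differences from WT were the lowest of all plastid loci, -1.0 in scr (SE 0.77, 95% interval -2.74 to 0.74, adjusted p = 0.718) and -0.92 in shr (SE 0.77, adjusted p = 0.511). Within same-numbered pairs scr was lower than WT each time, with differences of -2.04, -0.61 and -0.35 (SE of the mean difference 0.40 and adjusted p = 0.377 with the replicate block). ATCG00590, the next code, read 11.86, 11.70 and 10.83 in WT, 11.47, 11.45 and 10.69 in scr and 11.50, 11.0 and 11.20 in shr. Its replicate 3 was the lowest in WT and scr and not in shr, and scr was below WT in each pair, with differences of -0.39, -0.25 and -0.15 (adjusted p = 0.673 with the replicate block). Whether the replicates with the same number shared a step is not given by the labels.

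**Figure D4:**
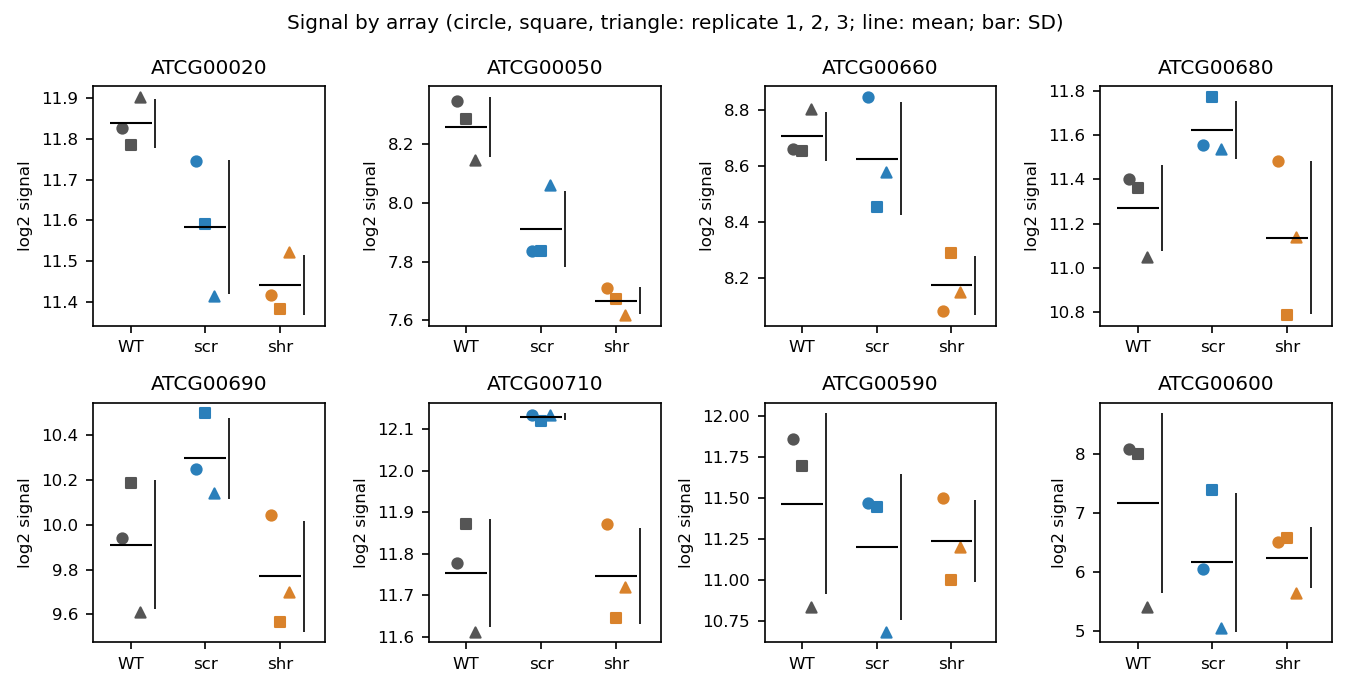
Log2 signal of 8 plastid loci on each array (points) with the mean and SD of each group of 3. ATCG00050, ATCG00660 and ATCG00020 are lowest in shr, ATCG00680, ATCG00690 and ATCG00710 have their highest means in scr, and ATCG00590 and ATCG00600 vary within groups.

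Differences from WT in shr were larger among the dimmer plastid loci. With the 73 loci split at a mean signal of 11.62 over all arrays, the 36 brighter ones had a median difference from WT of -0.02 in shr, and 22 were below 0. The 37 dimmer ones had a median of -0.17, 31 were below 0, and the 12 loci lower at an unadjusted p under 0.05 were among them, counting ATCG00020, whose mean is the split value itself. In scr the median size of the difference was alike, 0.0911 in the brighter and 0.0886 in the dimmer loci. The dimmer loci also varied more between repeats, with a median SD of 0.141 against 0.0857. Bright probes on these arrays lie near the top of the measured range, and the part of that in the smaller differences was not tested.

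Of the mitochondrial loci, the other organelle genome on the array, none was called. These loci read 3.50 to 7.46, whereas 58 of the 73 plastid loci lay in the top 10% of all loci by signal. The part of this dim signal in the absence of calls was not tested. None of the 31 passed the limma test in scr, in shr or between the mutants, where 0.366%, 8.14% and 1.34% of all loci did. At an unadjusted p under 0.05 there were 2, 2 and 3 (6.45%, 6.45% and 9.68%), beside 11.0%, 24.6% and 16.7% of all loci. Their medians were 0.05 in scr, -0.05 in shr and -0.06 between the mutants, and 13 of 31 were below 0 in scr and 19 (61.3%) in shr, beside 48.5% and 52.5% of all loci. In shr, 2 mitochondrial loci (6.45%) were below WT and 2 above it without overlap of the groups, beside 15.1% and 14.3% of all loci. The median mitochondrial locus lay 0.06 above the WT mean on shr replicate 3, so unlike the plastid loci the shr arrays were not the 3 lowest.

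The array of shr replicate 3 stood apart from the others over all loci, but not in its plastid transcripts. Over all loci its correlation with the other 8 arrays was 0.970 to 0.979, below the 0.983 to 0.997 among those 8; over the 73 plastid loci it was 0.989 to 0.997, inside the range of the others. These correlations mostly reflect the differences in signal between loci. Its root mean square distance from its own group was 0.460 over all loci, the largest of the 9, and 0.138 over the plastid loci without ATCG00600, the smallest of the 9, where the others had up to 0.250. XTH24, listed as the senescence marker SEN4, read 11.31 on this array and 7.36 to 7.97 on the other 8, whereas the senescence markers SAG12 and SAG13 stayed at 3.61 to 4.29 on all 9. Without this array the same 3 plastid loci fell in shr and none was called in scr or between the mutants. The shoot marker RCA, the activase of Rubisco, read 13.63 to 13.86 on all arrays, and the chloroplast regulators GPRI1 (GLK1) and GLK2 read 9.49 to 10.34 and 9.56 to 10.50. GLK2 read 10.50, 10.25 and 10.34 in WT and 10.19, 9.92 and 9.56 in shr, without overlap, a difference of -0.47 (limma adjusted p = 0.0876), and its part in the plastid and nuclear differences was not tested. The 7 measured root markers read 4.10 to 6.34 and the 3 flower markers 3.26 to 4.25, and none of the marker loci was called in any comparison.

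Some nuclear genes for the expression of the plastid genome fell in shr. Of 20 measured genes of the plastid transcription machinery, 8 fell and none rose in shr against WT, with a list median of -0.40, beside the 3.79% of all loci that fell. This list was assembled with earlier results of these data known, and it is described by its counts alone. HCF173, which promotes the translation of a photosystem II core mRNA, belongs to a list for plastid RNA processing and stability, of which 4 of 14 fell with a median of -0.32. Nuclear subunits of the plastid ribosome fell in 5 of 14 cases, with a median of -0.23. In scr limma called no gene of these lists, beside 0.366% of all loci. At an unadjusted p under 0.05, 4 of 20 were lower in the first, and 1 of 14 was lower and 2 higher in the second. In the third, 2 of 14 were lower. Of all loci, 5.71% were lower and 5.28% higher in scr at that p. In the transcription machinery 2 genes were lower in scr past the threshold without shr replicate 3, and 1 with the WT and scr arrays only. With each array shifted to the median of all its loci, 9, 5 and 7 genes of the 3 lists fell in shr. The shift to the plastid median, which moved the median of all loci in shr to 0.11, left 0, 1 and 0 that fell. The numbers that fell move with the arrays: leaving out 1 array gave 2 to 7 for the transcription machinery, lowest without WT replicate 2, 1 to 5 for RNA processing, lowest without WT replicate 1 or 2 or shr replicate 2, and 0 to 3 for the ribosome, at 0 without WT replicate 2 or 3 or shr replicate 2.

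SIG2, a sigma factor that directs PEP to its promoters, read 9.90, 10.18 and 10.01 in WT and 9.47, 9.44 and 9.54 in shr. The groups did not overlap, and the difference was -0.55 (SE 0.09, limma adjusted p = 0.00827). FLN1, a PEP-associated protein, differed by -0.68 (SE 0.12, adjusted p = 0.0121) and HCF173 by -0.91 (SE 0.13, adjusted p = 0.00494). These 3 were called in each of the 9 fits that omitted an array. Further PEP-associated genes that fell were FLN2 (-0.68), TRX z (-0.61), PTAC12 (-0.56), FSD2 (-0.48) and PTAC14 (-0.43), together with the sigma factor SIGF (-0.36), and each lost its call in 2 to 7 of those fits. In the RNA list, the pentatricopeptide repeat proteins PGR3 (-0.54) and GUN1 (-0.33) and the RNA-binding CSP41A (-0.37) fell, each losing its call in 4 to 6 of the fits. Of the ribosomal proteins, RPS9 fell by 0.36 (adjusted p = 0.0153) and was called in 6 of the 9 fits, while RPL4, EMB3113, emb1473 and AT1G64510 fell by 0.25 to 0.29 and were called in at most 1. Between the mutants SIGF was lower in shr by 0.44 and CSP41A by 0.38 (adjusted p = 0.0498 for each). Neither list kept a call between the mutants when any WT or scr replicate or shr replicate 2 was omitted, or with the scr and shr arrays only. The transcription list had none without shr replicate 3 or with the replicate block either.

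SCA3, listed as RPOTp and a nuclear gene for a plastid phage-type polymerase, did not pass the limma test in shr, with a difference of 0.07 (adjusted p = 0.814). AT5G15700 of the same list, listed as RPOTmp, did not pass it either, at 0.12 (adjusted p = 0.668). SIGE (SIG5), a light- and stress-responsive sigma factor, differed by -0.90 with a wide error (SE 0.53, adjusted p = 0.338), since it read 8.46, 7.82 and 5.95 on the shr arrays. For the photosynthetic complexes that hold plastid-encoded subunits, few nuclear partners were called in shr. None of 12 photosystem I and 8 photosystem II genes was called, with medians of -0.02 and -0.03, and 1 at an unadjusted p under 0.05. None of 2 cytochrome b6f and 3 ATP synthase genes was called either, and 1 was at an unadjusted p under 0.05. Of all loci, 8.14% were called in shr and 24.6% had an unadjusted p under 0.05. The photosystem I genes read 11.46 to 13.68 and the photosystem II genes 12.33 to 13.75, where the highest value of all loci was 14.03. The part of this bright signal in the small differences was not tested. Of 3 NDH genes, NdhL fell by 0.60 (limma adjusted p = 0.0327), a call that was lost in 5 of the 9 fits that left out 1 array. The codes of the 4 listed nuclear Rubisco genes matched no measured locus.

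**Figure D5:**
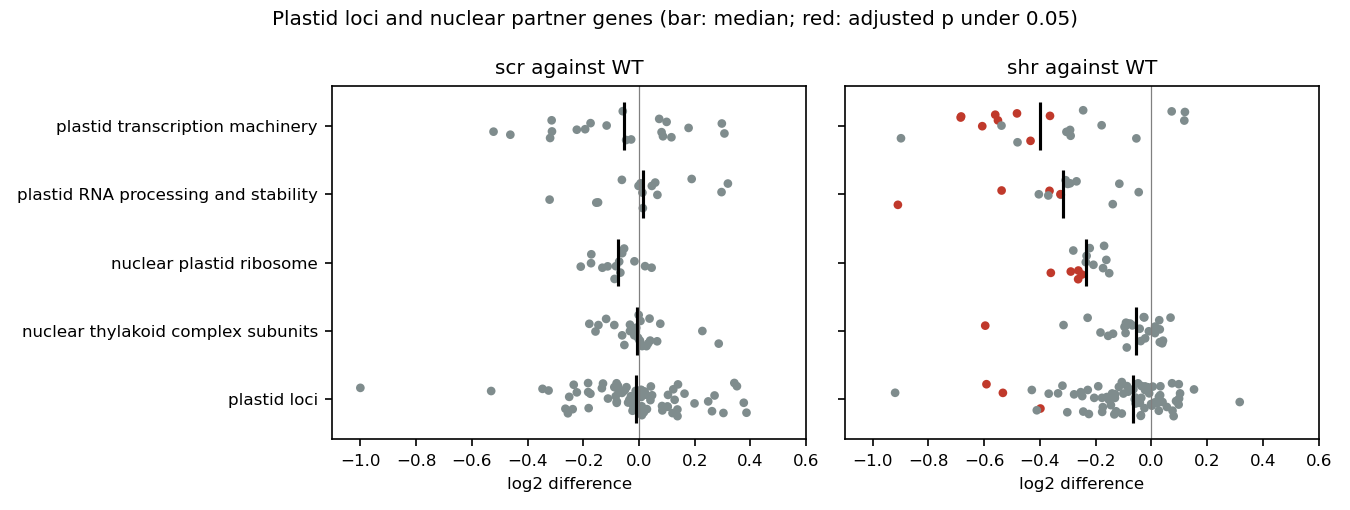
Log2 difference from WT in scr and shr for the 73 plastid loci and the nuclear genes (dots), with medians as lines. Loci with an adjusted p under 0.05 are red. Nuclear subunits of the photosystems, cytochrome b6f, ATP synthase and NDH complex share a single row. In shr the transcription, RNA processing and ribosome lists have medians below 0 with 8, 4 and 5 red genes. There 3 plastid loci are red, and NdhL is red in the row of complex subunits. In scr no dot is red.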

How the data were processed

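The deposited values are log2 signals of 20777 loci, and RMA is the method that the submitters' processing notes name for them. RMA's version, filters and the mapping of probes to loci were not stated, nor was the primer of the labelling reaction, which matters because plastid mRNAs carry few lasting poly(A) tails. No 2 arrays were identical. With R 4.3.3 and limma 3.58.1, a mean per genotype was fitted to all 9 arrays (6 residual and 2.99 prior degrees of freedom), with Benjamini-Hochberg adjustment over all loci, a threshold of 0.05 and no filter. The fit was tested on simulated data. The number of arrays limits the precision.

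The plastid loci and the lists were chosen with earlier results of these data known. RefSeq symbols (TAIR10.1) matched 20508 loci and none of the 73 plastid codes. Lists of plastid roles, operons and promoter motifs that had been drawn up were therefore not used. The naming rule (called loci, the 5 highest and 5 lowest differences, and chosen loci) was applied in part. Named were called loci, some extremes, and loci near the threshold or of wide spread picked after their values were seen. No sequences were used here.

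Over all loci, deviations of same-numbered arrays correlated at 0.277, 0.138 and 0.107 between scr and WT. Over the plastid loci they correlated at 0.0729, 0.593 and 0.752, and scr replicate 2 with WT replicate 1 at 0.617. ATCG00600, with an SD within groups of 1.15 beside a median of 0.103, can weigh heavily in these plastid values, and its part was not tested. The numbers were read as pairs between scr and WT only in describing some loci. The main fit had no block, and the replicate block was an alternative. In shr against WT (0.204, -0.106, 0.0994) and shr against scr (0.444, -0.0448, 0.335) over all loci, they were not read as pairs. Alternatives were a shift of each array to its median over all loci or over plastid loci, no dim loci, arrays of both groups only, a replicate block, a variance trend, robust eBayes and leaving out each array.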

Additional observations from a re-analysis of the deposited data

How the results depend on the processing

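Shifting each array to the median of all its loci raised the plastid loci that fell in shr from 3 to 7 and moved their median difference to -0.13, and between the mutants gave 1 call (ATCG01080, adjusted p = 0.0457) and a median of -0.11. Shifting it to the median of its plastid loci, which makes these medians equal by construction, left 1 call in shr (ATCG00050) with a median of 0.057, and medians of 0.0446 in scr and 0.0015 between the mutants; it moves the median of all loci in shr from -0.01 to 0.11. Plastid loci below 0 in shr then numbered 30, against 53. Under it the nuclear lists had 0 falls in the transcription machinery, 1 in RNA processing and 0 in the ribosome. The shift to the median of all loci gave 9, 5 and 7, against 8, 4 and 5 in the main fit. With the arrays of both groups only, 1 locus was called in scr (ATCG00210, adjusted p = 0.0335), and the nuclear counts in shr were 4, 1 and 0. The replicate block left the scr count at 0, lowered shr from 3 to 2 and gave 0 between the mutants; of the nuclear lists in shr it left 6, 4 and 1. Leaving out 1 array gave 1 to 3 calls in shr, with 1 without WT replicate 1 or shr replicate 1, medians of -0.09 to -0.04 in shr, and 0 calls in scr and between the mutants. The variance trend, robust eBayes and the filter on dim loci, which left 70 plastid loci, kept the counts within 1.5 times. The medians in scr, in shr and between the mutants changed sign under the plastid shift. Since that shift sets the plastid medians of the arrays equal, this change of sign says nothing about the plastid level. No called locus changed sign under any of these alternatives. The cause of these changes was not tested. With 3 arrays a group, the 95% interval was wider than 1.5-fold for some loci.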
